A study of Sus scrofa with 13 samples.

Results

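The integrated stress response genes around ATF4 were followed in pig embryos. They were taken as the 10 rows of the deposited Sscrofa11.1 gene table, among 28232 genes, whose symbol was ATF4, ATF3, DDIT3, ASNS, TRIB3, CHAC1, PPP1R15A, SESN2, XBP1 or ERN1. All 10 had a row of their own, and all 10 passed the filter on low counts in both fits. Messenger RNA was sequenced from pooled porcine (Sus scrofa) preimplantation embryos of 5 groups. These were in vivo-derived blastocysts and in vivo-derived hatched blastocysts (n = 2 libraries each), and IVF-derived 4-cell embryos, blastocysts and hatched blastocysts (n = 3 each), where IVF is in vitro fertilisation. A blastocyst has a fluid cavity, and a hatched one has left the zona pellucida. There was no in vivo 4-cell group. The breed, the animals, the embryo day, the culture medium, the pool size and the sequencing batch are not given in the sources used here. None of them can therefore be told apart from the origin of the embryos, or from their stage and hatching. No drug or genetic change was given for any group, and no group was labelled as stressed.

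In the integrated stress response, kinases that sense amino acid shortage, misfolded protein in the endoplasmic reticulum, heme shortage or viral RNA phosphorylate the translation factor eIF2. Bulk protein synthesis then slows, while the message of ATF4 is translated more, and ATF4 protein switches on genes for amino acid supply and for recovery or death of the cell. The endoplasmic reticulum has a parallel sensor, ERN1 (IRE1), which splices the XBP1 message. Gene counts show neither the phosphorylation of eIF2, nor the translation of ATF4, nor the splicing of XBP1: they give the summed messages of each gene only. In pooled whole embryos, fewer cells of a type and less RNA per cell cannot be told apart.

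The 10 genes lie on 7 chromosomes of Sscrofa11.1, and their positions come from RefSeq. ATF4 spans 8742964 to 8745752 on chromosome 5, which also holds DDIT3 (22785441 to 22789867). ATF3 (130772259 to 130829678) and ASNS (77318341 to 77336290) are on chromosome 9, and PPP1R15A (54172038 to 54175461) and SESN2 (85321982 to 85348044) on chromosome 6. TRIB3 is on chromosome 17 (34808273 to 34819592), CHAC1 on 1 (130360510 to 130363332), XBP1 on 14 (46011239 to 46016526) and ERN1 on 12 (14881913 to 14963290).

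Levels are CPM (counts scaled to the same normalised library size), and ± gives the SD between libraries. Fold changes are on the log2 scale, from edgeR's quasi-likelihood test, with ± the standard error. A gene was called where its Benjamini-Hochberg adjusted p over all genes tested was under 0.05. Libraries held 33259311 to 39273867 counts, and 3 counts correspond to 0.0764 to 0.0902 CPM.

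Libraries of a group did not always resemble each other. In log2 CPM across genes, 4-cell library 1 correlated at r = 0.812 and 0.815 with the other 4-cell libraries, which correlated at 0.884 with each other, against 0.942 to 0.964 within the other groups. It was the highest 4-cell library for 7 of the 10 genes (ATF4, ATF3, DDIT3, TRIB3, PPP1R15A, SESN2 and ERN1) and the lowest for the other 3. The in vivo hatched libraries, 1 of which carries no number in its count column and is called the unnumbered library, correlated at 0.955 over all genes, but the unnumbered library was higher for 9 of the 10 members, all but ERN1. IVF blastocyst library 1 was likewise the highest of its group for 8 of the 10, and in vivo blastocyst library 2 for 7. Summed over 26 immediate early genes, which are switched on within minutes of handling or growth signals, 4-cell library 1 had 2050 CPM against 609 and 582, and the unnumbered library had 2970 CPM against 2130. The part of these differences between libraries in the results below was not tested. Oocyte messages summed to 14700 to 24700 CPM in 4-cell embryos and to at most 18.7 CPM elsewhere. Trophectoderm markers summed to 96 to 618 CPM in 4-cell embryos and 19600 to 39200 CPM at the later stages. The 4-cell and the later libraries thus matched their labels. The trophectoderm sums of blastocysts and hatched blastocysts overlapped within each origin, so they do not check the hatched label. Among 10 sperm markers, PRM2, TNP1, ODF1, ACR and SMCP were at 0 in every group.

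ATF4, the activating transcription factor at the centre of the response, had 213, 92.9 and 106 CPM in the 4-cell libraries. It had 436, 361 and 334 CPM in IVF blastocysts and 237, 238 and 275 CPM in IVF hatched blastocysts. In vivo blastocysts had 317 and 464 CPM, and the values after hatching in vivo were 515 CPM (unnumbered) and 220 CPM (library 2). The 4-cell libraries were all below the 10 later libraries, while the ranges of IVF and in vivo blastocysts overlapped. Per gene length, ATF4 was one of the more abundant of the 10 genes, at 108 ± 63.1 FPKM (the authors' deposited values, which correct for the length of the gene and the depth of the library) in 4-cell embryos, 239 ± 34.1 FPKM in IVF blastocysts and 240 ± 72.4 FPKM in in vivo blastocysts.

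DDIT3 (CHOP) and ATF3 are transcription factors that act after ATF4, and DDIT3 is tied to cell death when stress lasts. DDIT3 had 174, 110 and 79 CPM in 4-cell embryos, 224, 139 and 125 CPM in IVF blastocysts and 103, 109 and 110 CPM in IVF hatched blastocysts. In vivo blastocysts had 229 and 172 CPM, and the in vivo hatched libraries held both its highest and its lowest value, 256 CPM in the unnumbered library and 49.5 CPM in library 2. DDIT3 moved least of the 10 genes over the 13 libraries, with 5.17-fold between the extremes, and ATF3 moved most, with 860-fold. ATF3 had 8.83, 0.714 and 0.793 CPM in 4-cell embryos, and between 110 and 180 CPM in all IVF blastocyst, IVF hatched and in vivo blastocyst libraries. After hatching in vivo ATF3 had 614 CPM (unnumbered) and 70.4 CPM (library 2), values on either side of all the other libraries past the 4-cell stage.

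TRIB3 and PPP1R15A feed back on the response: TRIB3 is a pseudokinase that restrains ATF4 and DDIT3, and PPP1R15A (GADD34) brings a phosphatase to eIF2. TRIB3 had 156 CPM in 4-cell library 1 but 9.4 and 6.6 CPM in libraries 2 and 3. It had 33, 23.1 and 26.7 CPM in IVF blastocysts, 15.7, 19.3 and 20.7 CPM in IVF hatched blastocysts, 35 and 68.3 CPM in in vivo blastocysts, and 79.1 (unnumbered) and 25.8 CPM in in vivo hatched blastocysts. Both in vivo groups lay above the IVF group of their stage, library by library. PPP1R15A had 275, 57.5 and 70 CPM in 4-cell embryos, 177, 145 and 144 CPM in IVF blastocysts and 136, 121 and 128 CPM in IVF hatched blastocysts. It had 124 and 261 CPM in in vivo blastocysts and 445 (unnumbered) and 202 CPM in in vivo hatched blastocysts, so its groups overlapped before hatching and were apart after it.

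ASNS, CHAC1 and SESN2 are effectors: ASNS makes asparagine, CHAC1 degrades glutathione, and SESN2 (sestrin 2) signals leucine shortage to mTORC1. ASNS had 42.6, 85.1 and 157 CPM in 4-cell embryos, 192, 102 and 292 CPM in IVF blastocysts and 52.6, 134 and 86.3 CPM in IVF hatched blastocysts. In vivo blastocysts had 476 and 506 CPM, the 2 highest values of all libraries, and in vivo hatched blastocysts 97.3 (unnumbered) and 46.5 CPM. CHAC1 had 131, 298 and 434 CPM in 4-cell embryos, 62.3, 20.9 and 35 CPM in IVF blastocysts, 14, 54.4 and 10.5 CPM in IVF hatched blastocysts, 556 and 327 CPM in in vivo blastocysts, and 152 (unnumbered) and 16.4 CPM in in vivo hatched blastocysts. All 4-cell and in vivo blastocyst libraries but 4-cell library 1 were therefore above all the others. SESN2 was low throughout, with 20.9 and 24.1 CPM in in vivo blastocysts, 18.6 CPM in 4-cell library 1, and 3.74 to 10.1 CPM in the 10 other libraries.

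XBP1, a transcription factor for endoplasmic reticulum chaperones and secretion, and ERN1, the kinase and nuclease that splices its message, make up the parallel branch. XBP1 had 3.93, 5.91 and 7.16 CPM in 4-cell embryos, 608, 425 and 433 CPM in IVF blastocysts and 375, 447 and 418 CPM in IVF hatched blastocysts. In vivo blastocysts had 271 and 426 CPM and in vivo hatched blastocysts 756 (unnumbered) and 248 CPM, so XBP1 separated the 4-cell libraries from all the others and did not separate the origins. ERN1 was the lowest of the 10 genes per length in every group (0.135 to 0.871 FPKM as group means). It had 9.64, 3.91 and 0.113 CPM in 4-cell embryos, 0.852, 1.41 and 1.27 CPM in IVF blastocysts, 0.847, 0.559 and 1.63 CPM in IVF hatched blastocysts, 4.25 and 1.6 CPM in in vivo blastocysts and 2.38 (unnumbered) and 2.88 CPM in in vivo hatched blastocysts.

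**Figure D1:**
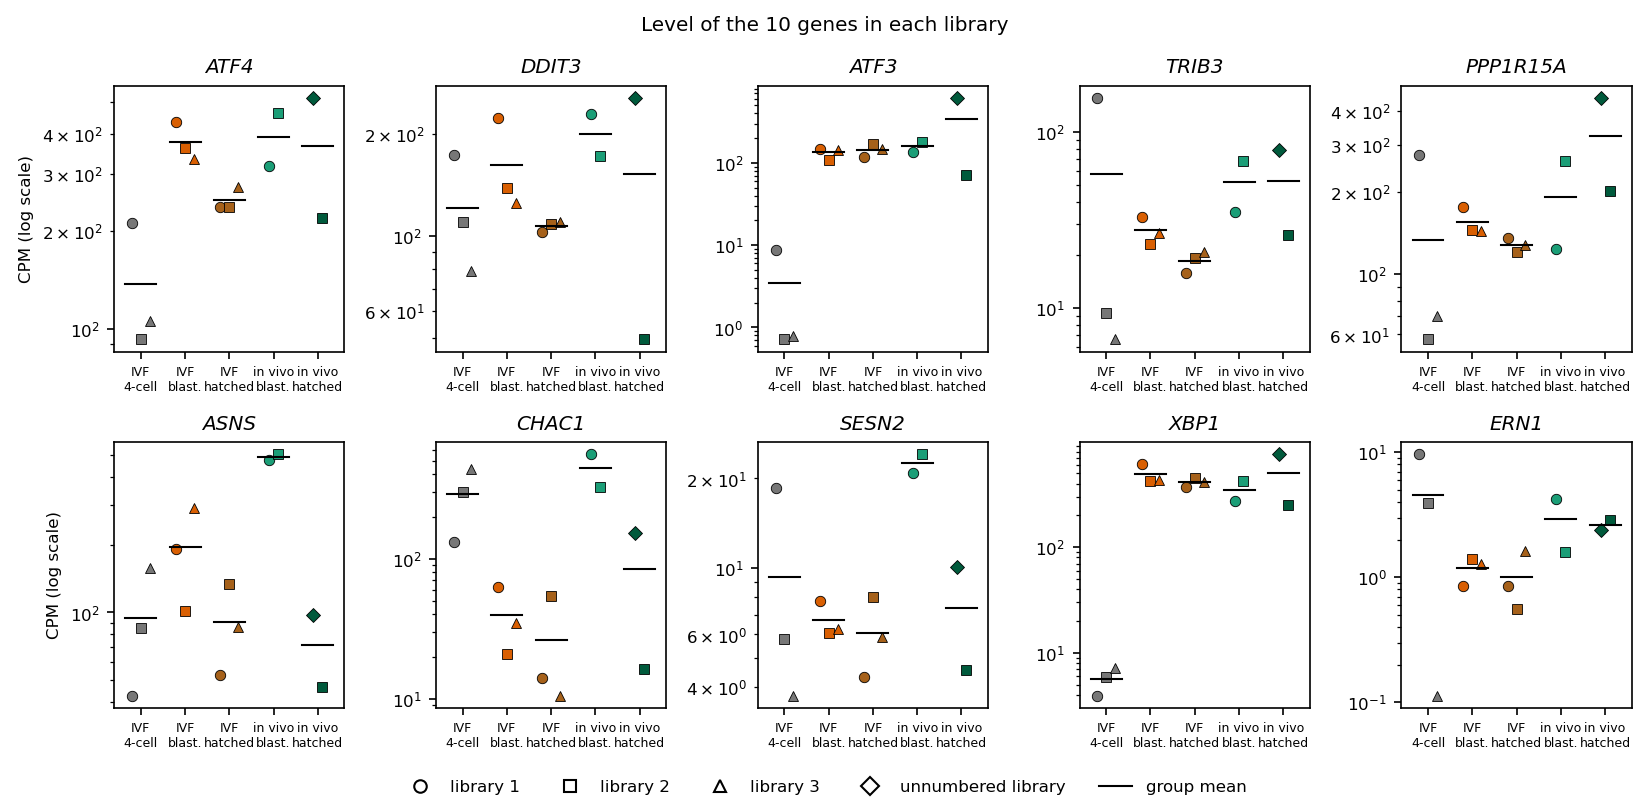
Level of each of the 10 genes in CPM (log axis, a scale of its own for each gene) in the 13 libraries, by group; symbols give the library number, diamonds the unnumbered in vivo hatched library and bars the group mean. ASNS, CHAC1 and SESN2 peak in in vivo blastocysts, ATF3 and XBP1 are lowest in 4-cell embryos, and the unnumbered library lies above library 2 for every gene but ERN1.

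The group mean was highest in in vivo blastocysts for 5 genes (ATF4, DDIT3, ASNS, CHAC1 and SESN2), in in vivo hatched blastocysts for 3 (ATF3, PPP1R15A and XBP1) and in 4-cell embryos for TRIB3 and ERN1. For ATF4 the order of means ran from in vivo blastocysts (390 ± 104 CPM) through IVF blastocysts (377 ± 52.7), in vivo hatched (367 ± 208) and IVF hatched blastocysts (250 ± 21.7) to 4-cell embryos (137 ± 66.1), and the first 3 groups differed by less than their spread. For ASNS in vivo blastocysts (491 ± 21.7 CPM) stood apart from IVF blastocysts (195 ± 95), while 4-cell (94.9 ± 57.7), IVF hatched (91.1 ± 41.1) and in vivo hatched embryos (71.9 ± 35.9) lay within each other's spread. The first place of TRIB3 came from 4-cell library 1, since the other 4-cell libraries were below all 10 later libraries. Per length, the most abundant of the 10 messages was CHAC1 in 4-cell embryos (207 ± 85.7 FPKM), ASNS in in vivo blastocysts (270 ± 34.1 FPKM), and XBP1 in IVF blastocysts (263 ± 56.2 FPKM) and IVF hatched blastocysts (216 ± 16.5 FPKM). In vivo hatched library 2, the 1 library of its group whose FPKM was used, had 153 FPKM of ATF4 and 141 FPKM of XBP1 at the top.

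The first comparison asked how embryos made by IVF differ at the blastocyst stage from those that developed in vivo. CHAC1 and SESN2 were lower in IVF blastocysts, and no member was higher. CHAC1 was 11.3-fold lower (log2 fold change -3.49 ± 0.86, adjusted p = 0.0264), and SESN2 3.37-fold lower (-1.75 ± 0.39, adjusted p = 0.0183). Of all genes tested, 10.8% were called in this comparison, 4.74% lower and 6.09% higher. ASNS (-1.34 ± 0.45, adjusted p = 0.0797), TRIB3 (-0.91 ± 0.41, adjusted p = 0.183) and ERN1 had groups that did not overlap but were not called. The groups did not overlap for 5 of the 10 genes, against 44.3% of all genes.

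ATF4 itself differed by -0.05 ± 0.31 on the log2 scale, with a 95% interval of -0.73 to 0.63, and DDIT3 by -0.31 ± 0.5 with an interval of -1.39 to 0.78. ATF3 was at -0.24 ± 0.59, PPP1R15A at -0.31 ± 0.34 and ERN1 at -1.32 ± 0.68 (adjusted p = 0.234), and none of these was called. Below 0 were 9 of the 10 values, all but XBP1 (0.48 ± 0.38), and their median was -0.61 against 0.05 for all genes. CHAC1 and SESN2 each kept their call in 1 of the 5 refits that leave out a single library. Neither was called without in vivo blastocyst library 1 or without IVF blastocyst library 2 or 3. SESN2 was also not called without in vivo blastocyst library 2, nor CHAC1 without IVF blastocyst library 1. Their values stayed negative in all 5 refits, from -3.99 to -3.03 for CHAC1. In 1 fit of all 13 libraries, which share 1 estimate of the spread with the 4-cell embryos, no member was called here, nor in the other 4 comparisons among blastocysts and hatched blastocysts. Sums of cell type markers moved with origin as well. The 10 epiblast markers summed to 983 to 1180 CPM in in vivo and 1430 to 2120 CPM in IVF blastocysts, and the 10 trophectoderm markers to 22800 to 25800 and 32300 to 39200 CPM, with none at 0 in either group. Of 9 trophectoderm markers tested, 5 were above 0 and 4 below, with a list median of 0.26, and the 1 called was lower in IVF. The epiblast sum was higher in IVF while 6 of its 10 genes were below 0, with a list median of -0.26, and TDGF1 was the 1 gene called (3.18 ± 0.33, adjusted p = 0.00115). Blood markers (9 measured) summed to 58.3 to 81.4 CPM in vivo and 134 to 189 CPM in IVF blastocysts, where PTPRC, HBB, CD3E and CSF1R were at 0. The part of these markers in the differences between origins was not tested.

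After hatching, the members that were lower in IVF embryos were TRIB3 and PPP1R15A, the pair that feeds back on the response. TRIB3 was 2.79-fold lower (log2 -1.48 ± 0.42, adjusted p = 0.0406) and PPP1R15A 2.49-fold lower (-1.32 ± 0.34, adjusted p = 0.0284), where 11.8% of all genes were called, 4.88% lower and 6.96% higher. Groups were apart for 3 of the 10 genes, against 46.3% of all genes. ATF4 differed by -0.54 ± 0.31 (95% interval -1.21 to 0.14), ASNS by 0.36 ± 0.46 and SESN2 by -0.25 ± 0.39, and none of these was called. The same held for CHAC1 (-1.66 ± 0.82, adjusted p = 0.217), ERN1 (-1.36 ± 0.68, adjusted p = 0.222), DDIT3 (-0.49 ± 0.49) and XBP1 (-0.26 ± 0.38). The median of the 10 values was -0.88, against 0.04 for all genes.

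These hatched values rest on in vivo libraries that lay far apart. Without the unnumbered library, TRIB3 and PPP1R15A were not called and the only member called was ATF3, higher in IVF at 1.05 (adjusted p = 0.0472). Without in vivo hatched library 2, ATF3 was lower at -2.08 (adjusted p = 0.00268), beside TRIB3 and PPP1R15A. With both libraries ATF3 was at -1.22 ± 0.58 (adjusted p = 0.199). The signs of ATF4, ASNS, CHAC1, DDIT3, SESN2 and XBP1, none of them called, also changed in at least 1 of the 5 refits, from -2.78 to 0.69 for CHAC1. Leaving out any 1 of the 3 IVF hatched libraries also left no member called.

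Hatching in vivo was accompanied by less ASNS and SESN2. ASNS was 6.98-fold lower in hatched than in unhatched in vivo blastocysts (log2 -2.8 ± 0.53, adjusted p = 0.00656) and SESN2 3.14-fold lower (-1.65 ± 0.44, adjusted p = 0.0297). Of all genes, 14.3% were called here, 7.39% lower and 6.96% higher. CHAC1 was at -2.43 ± 0.96 (adjusted p = 0.112), with groups that did not overlap. The groups of 3 of the 10 genes were apart, against 53.4% of all genes. ATF4 differed by -0.12 ± 0.34 and XBP1 by 0.5 ± 0.42. ATF3 was at 1.08 ± 0.65, PPP1R15A at 0.72 ± 0.38, DDIT3 at -0.43 ± 0.55, ERN1 at -0.19 ± 0.75 and TRIB3 at -0.01 ± 0.46, with none called. The median of the 10 was -0.15 against -0.01 for all genes.

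Here too the hatched libraries disagreed. Without the unnumbered library, 5 members were called lower: ASNS, SESN2, CHAC1, DDIT3 and ATF3, the last at -1.19 (adjusted p = 0.0341). Without in vivo hatched library 2, ATF3 was the 1 member called and was higher at 1.93 (adjusted p = 0.00527), and ASNS missed the threshold (adjusted p = 0.0531). SESN2 was called in 1 of the 4 refits, that without the unnumbered library, and was lost without either in vivo blastocyst library.

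In IVF embryos, hatching was accompanied by no called member, in edgeR or in DESeq2, and by 1 member (ASNS, unadjusted p = 0.0206 in edgeR's quasi-likelihood test) under an unadjusted p of 0.05. Over all genes edgeR called 0.0451%, all lower, and 3.83% had an unadjusted p under 0.05 in its test. DESeq2 called 51 genes. ATF4 was lower in all 3 hatched libraries than in all 3 unhatched ones, at -0.6 ± 0.28 (95% interval -1.22 to 0.01), and so were DDIT3, TRIB3 and PPP1R15A. That makes 4 of 10 genes with groups apart, against 10.7% of all genes. ASNS differed by -1.11 ± 0.41 with overlapping groups. DDIT3 was at -0.61 ± 0.45, TRIB3 at -0.58 ± 0.38 and PPP1R15A at -0.29 ± 0.31. CHAC1 (-0.6 ± 0.75), XBP1 (-0.25 ± 0.34), ERN1 (-0.23 ± 0.62), SESN2 (-0.15 ± 0.35) and ATF3 (0.1 ± 0.53) had overlapping groups.

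The difference between the hatching changes of the 2 origins was tested directly, since ASNS and SESN2 were called in vivo and not in IVF. No member passed, in edgeR or in DESeq2. Of all genes 4.71% passed in edgeR, and DESeq2 called 1879 genes. The change was less negative in IVF by 1.7 ± 0.65 for ASNS (adjusted p = 0.158) and by 1.5 ± 0.56 for SESN2 (adjusted p = 0.149), the 2 members with an unadjusted p under 0.05, against 21.9% of all genes. CHAC1 was at 1.83 ± 1.19, and the values of the other 7 ran from -1.01 ± 0.49 (PPP1R15A) through ATF3 (-0.98 ± 0.84), XBP1 (-0.75 ± 0.54), TRIB3 (-0.57 ± 0.6), ATF4 (-0.49 ± 0.44) and DDIT3 (-0.19 ± 0.71) to ERN1 (-0.04 ± 0.96). A difference in how these genes change with hatching was therefore not shown. Without in vivo hatched library 2, ATF3 was called, at -1.83 (adjusted p = 0.0296).

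**Figure D2:**
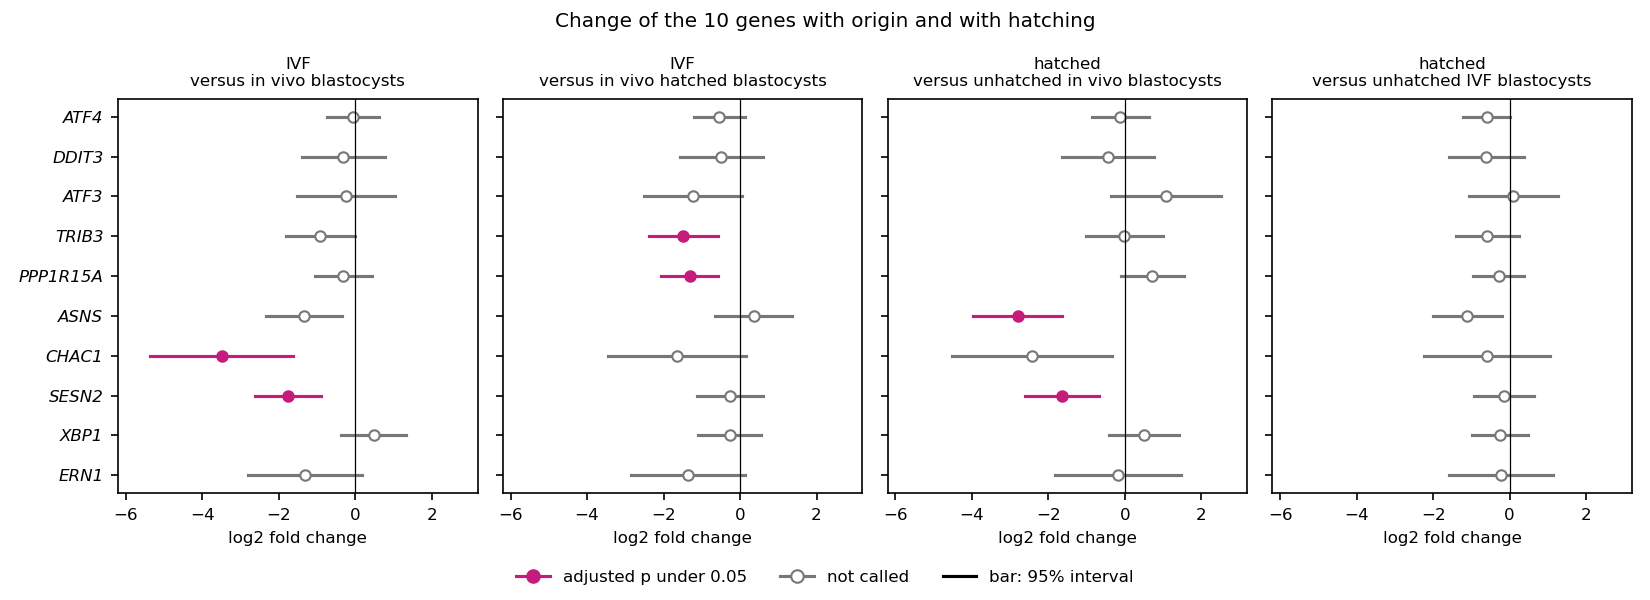
Log2 fold change of the 10 genes (points, with 95% intervals as bars) between IVF and in vivo embryos before and after hatching, and between hatched and unhatched embryos of each origin; filled points passed an adjusted p under 0.05. CHAC1 and SESN2 pass in the first comparison, TRIB3 and PPP1R15A in the second, ASNS and SESN2 in the third and none in the fourth, while ATF4 passes in none of the 4.

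From the 4-cell embryo to the IVF blastocyst, XBP1, ATF3 and ATF4 rose and CHAC1 fell. XBP1 was 80.2-fold higher (log2 6.33 ± 0.4, adjusted p = 1.78e-05), ATF3 36.8-fold higher (5.2 ± 0.99, adjusted p = 0.00234) and ATF4 2.58-fold higher (1.37 ± 0.35, adjusted p = 0.00982). CHAC1 was 7.87-fold lower (-2.98 ± 0.77, adjusted p = 0.00968). The background is large: 56.3% of all genes were called, 25.7% higher and 30.6% lower, and 66.2% had groups apart, against 4 of the 10 members. The median of all genes was -0.23. ASNS (0.93 ± 0.58), DDIT3 (0.34 ± 0.36), PPP1R15A (0.13 ± 0.54), SESN2 (-0.57 ± 0.63) and ERN1 (-2.03 ± 1.2) were not called.

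In IVF hatched blastocysts XBP1 and ATF3 were again higher than in 4-cell embryos and CHAC1 lower, and ATF4 was not called. XBP1 was 67.7-fold higher (6.08 ± 0.39, adjusted p = 1.88e-05), ATF3 39.6-fold higher (5.31 ± 0.99, adjusted p = 0.00214) and CHAC1 11.8-fold lower (-3.57 ± 0.79, adjusted p = 0.00469). ATF4 was at 0.77 ± 0.35 (adjusted p = 0.087). PPP1R15A (-0.15 ± 0.54), ASNS (-0.17 ± 0.58), DDIT3 (-0.27 ± 0.36), SESN2 (-0.71 ± 0.63) and ERN1 (-2.25 ± 1.21) were not called either. Of all genes 56.6% were called, 25.7% higher and 30.9% lower, and 66.9% had groups apart, against 4 of the 10 members. Both comparisons use the same 3 4-cell libraries, so they are not independent.

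Scaling and 2 of the 4-cell libraries changed what was called. With raw library totals in place of normalised ones, ATF4 in blastocysts was at 1.04 and was not called (adjusted p = 0.056), while the median of all genes moved to -0.5. Without 4-cell library 1, 7 members were called in blastocysts, all 4 above plus DDIT3, TRIB3 (1.79, adjusted p = 0.00169) and PPP1R15A (1.29, adjusted p = 0.000989), all 3 higher. In hatched blastocysts 6 were then called, with ATF4 (1.32, adjusted p = 0.000847), TRIB3 (1.21, adjusted p = 0.00952) and PPP1R15A (1, adjusted p = 0.0033) higher. Without 4-cell library 3, where it had its lowest level, ERN1 was called lower in blastocysts (-2.58, adjusted p = 0.0224) and in hatched blastocysts (-2.8, adjusted p = 0.0166). With all libraries TRIB3 was at -1.13 ± 1.01 and -1.7 ± 1.02 in the same comparisons. The direction of TRIB3 from the 4-cell stage thus depends on 1 library, and that of XBP1, ATF3 and CHAC1 did not change in any of the 6 refits of each comparison.

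**Figure D3:**
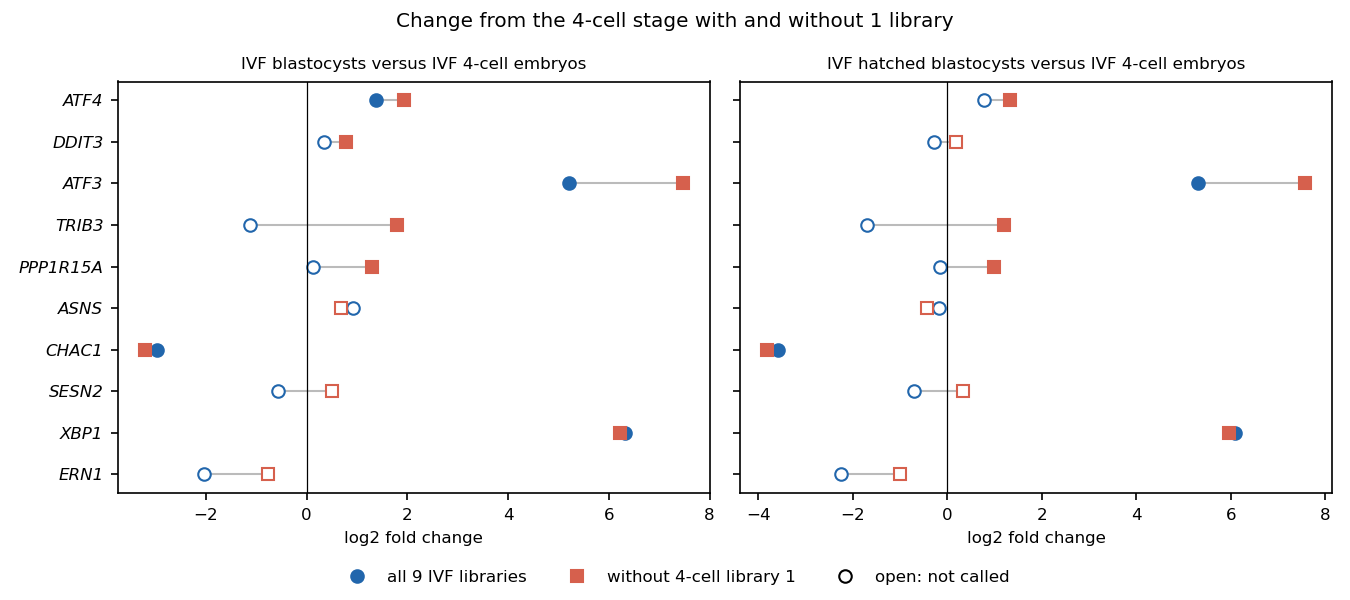
Log2 fold change of the 10 genes from IVF 4-cell embryos to IVF blastocysts (left) and hatched blastocysts (right), with all 9 IVF libraries (circles) and without 4-cell library 1 (squares); filled symbols passed an adjusted p under 0.05. TRIB3 changes sign between the fits, from -1.13 to 1.79 and from -1.7 to 1.21, and XBP1 and CHAC1 hardly move.

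The machinery upstream of ATF4, 18 genes for the eIF2 kinases, the eIF2 and eIF2B subunits and the phosphatase that resets eIF2, held 2 genes called higher in IVF blastocysts and 2 called lower, where 6.09% and 4.74% of all genes were called. Of the 18, 14 were below 0, and the list median was -0.28 against 0.05 for all genes. PPP1CC (1.14 ± 0.2, adjusted p = 0.0082) and PPP1CA (1.75 ± 0.45, adjusted p = 0.0314), catalytic subunits of that phosphatase, were the higher pair. EIF2S2, the beta subunit of eIF2, was lower (-1.67 ± 0.32, adjusted p = 0.0106), from 1290 ± 478 CPM in vivo to 408 ± 111 CPM in IVF, and so was OMA1, a mitochondrial protease that relays stress to the response (-1.06 ± 0.27, adjusted p = 0.0319). The count of 4 was 1 without in vivo blastocyst library 1 and 2 without IVF blastocyst library 1 or 2. After hatching edgeR called 0 of the 18 between the origins, with 4 at an unadjusted p under 0.05 and 2 called by DESeq2. From the 4-cell embryo to the IVF blastocyst 10 of 18 were higher and 2 lower, EIF2S1 (3.93 ± 0.64, adjusted p = 0.00114) and EIF2B3 (2.8 ± 0.36, adjusted p = 0.000336) among the higher. Of all genes 25.7% were higher there and 30.6% lower. In that comparison 10 of 13 aminoacyl-tRNA synthetases were higher and none lower, 13 of 24 other ATF4 targets were higher and 4 lower, and 4 of 11 amino acid transporters were higher and 4 lower. With a single library left out, 2 to 5 transporters were higher and 2 to 4 lower. Of 29 targets of XBP1 and ATF6 9 were higher and 6 lower, or 15 and 7 without 4-cell library 1.

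ATF4 is known to control genes for amino acid supply besides ASNS. Of 13 aminoacyl-tRNA synthetases, which load amino acids onto tRNA, 6 were lower in IVF blastocysts than in their in vivo counterparts and none was higher, where 4.74% of all genes were lower. The list median was -0.64 against 0.05 for all genes. CARS fell from 353 ± 70.2 CPM in vivo to 121 ± 18.1 CPM in IVF (-1.55 ± 0.22, adjusted p = 0.00381), and WARS from 522 ± 31.8 to 195 ± 41 CPM (-1.42 ± 0.23, adjusted p = 0.00529). The count dropped to 3 without in vivo blastocyst library 1 and to 3 without IVF blastocyst library 2. After hatching 3 of 13 were lower in IVF (4.88% of all genes), and none without in vivo hatched library 2. After hatching in vivo 4 of 13 were lower and 1 higher (7.39% and 6.96% of all genes), GARS among the lower (416 ± 109 to 102 ± 31.7 CPM, -2.06 ± 0.3, adjusted p = 0.00197).

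Among 11 amino acid transporters, 3 were lower in IVF blastocysts and none higher, where 4.74% of all genes were lower, and the list median was -1.03 against 0.05. SLC7A11, which imports cystine for glutathione, had 68.2 ± 8.12 CPM in in vivo blastocysts and 4.53 ± 4.3 CPM in IVF blastocysts (-3.92 ± 0.6, adjusted p = 0.00456). SLC7A5, which imports leucine, had 102 ± 13.8 and 35.3 ± 12.5 CPM (-1.53 ± 0.28, adjusted p = 0.00898). After hatching 2 of 11 were higher in IVF and 1 lower (6.96% and 4.88% of all genes, list median -0.62 against 0.04), where SLC7A11 was at 0.702 ± 0.086 CPM in vivo and 5.82 ± 1.7 CPM in IVF (3.06 ± 0.69, adjusted p = 0.016). Without the unnumbered library SLC7A11 was no longer called, and without in vivo hatched library 2 no transporter was.

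The hatching change differed between the origins, by its own test, for 2 of the 11 transporters, SLC7A11 and SLC7A5, where 4.71% of all genes were called. In vivo, SLC7A11 changed by -6.63 ± 0.81 (adjusted p = 0.000889) and SLC7A5 by -3.19 ± 0.34 (adjusted p = 0.000528). SLC7A1, which imports arginine and lysine, was the third transporter called lower in vivo (-4.75 ± 1.17, adjusted p = 0.0213), and its difference between the origins was not called (3.44 ± 1.42, adjusted p = 0.183). IVF embryos showed no called change for the 11 transporters, with 1 at an unadjusted p under 0.05 and 0 called by DESeq2. The difference of the changes was 6.98 ± 0.93 for SLC7A11 (adjusted p = 0.00401) and 3.06 ± 0.42 for SLC7A5 (adjusted p = 0.00453), and both were called in all 10 refits without a single library. In the fit of all 13 libraries neither was called, at 6.96 (adjusted p = 0.101) and 3.04 (adjusted p = 0.446), and 1 gene of the whole table was.

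Of 24 other ATF4 targets, 11 were lower after hatching in vivo and none higher, where 7.39% of all genes were lower. The list median was -1.35 against -0.01 for all genes. They included PHGDH, which opens serine synthesis (319 ± 113 to 17.4 ± 8.58 CPM, -4.22 ± 0.5, adjusted p = 0.000889), and PYCR1, which closes proline synthesis (352 ± 24.6 to 60.8 ± 8.1 CPM, -2.56 ± 0.42, adjusted p = 0.00348). GDF15, a secreted stress hormone, went from 20.5 ± 3.9 to 2.63 ± 0.247 CPM (-2.99 ± 0.38, adjusted p = 0.00116), and CTH, which makes cysteine, from 1100 ± 306 to 347 ± 84 CPM (-1.7 ± 0.27, adjusted p = 0.00277). Between 8 and 13 of the 24 were called lower in the refits without a single library. In the fit of all 13 libraries 1 was called lower, GDF15 (adjusted p = 0.0439), among 101 genes called in the whole table.

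For 4 of the 24 the hatching change differed between the origins, less negative in IVF, where 2.79% of all genes were called in that direction: PHGDH (4.47 ± 0.6, adjusted p = 0.00431), GDF15 (2.52 ± 0.47, adjusted p = 0.0158), CTH (1.62 ± 0.34, adjusted p = 0.0244) and CBS, the enzyme before CTH (4.83 ± 1.19, adjusted p = 0.0421). PHGDH was called in all 10 refits, CTH in 3 and CBS in 2 of 10, and GDF15 was lost without in vivo hatched library 2. The count of 4 was 8 without the unnumbered library and 2 or 3 without any of the other 9 libraries, and none of the 24 was called in the fit of all 13 libraries. Between hatched embryos, 6 of the 24 were higher in IVF and 1 lower (6.96% and 4.88% of all genes), CTH among the higher (347 ± 84 CPM in vivo and 1700 ± 258 CPM in IVF, 2.31 ± 0.26, adjusted p = 0.000479). Leaving out in vivo hatched library 2 lowered that count of 6 to 2, and leaving out IVF hatched library 2 or 3 lowered it to 3. In blastocysts, 3 of the 24 were lower in IVF, VEGFA, STC2 and GPT2, and MTHFD2 was higher (0.86 ± 0.23, adjusted p = 0.0352), against 4.74% and 6.09% of all genes. VEGFA and STC2 were called in all 5 refits without a single library, and GPT2 and MTHFD2 in none.

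The list of XBP1 and ATF6 targets includes chaperones and folding enzymes of the endoplasmic reticulum. A part of it was lower in IVF embryos at each stage, and XBP1 itself was called at neither. In blastocysts 12 of 29 were lower (4.74% of all genes) and none higher, with a list median of -0.94 against 0.05 for all genes. PDIA6, a disulfide isomerase, had 1310 ± 357 CPM in vivo and 337 ± 58 CPM in IVF (-1.96 ± 0.26, adjusted p = 0.00344), and CRELD2 had 426 ± 216 and 96 ± 16.9 CPM (-2.16 ± 0.3, adjusted p = 0.00381). In hatched blastocysts 12 of 29 were lower (4.88% of all genes) and none higher, with a median of -0.82 against 0.04. The genes lower at the 2 stages share 7, HSPA5, DNAJB9, DNAJB11, HYOU1, PDIA4, PDIA6 and MBTPS2, 58.3% of each. MBTPS2 is a protease that cleaves ATF6, so it is neither a chaperone nor a folding enzyme. How many of all genes were lower at both stages was not counted. HSPA5 (BiP), the main chaperone of the endoplasmic reticulum, had 4000 ± 1610 CPM in vivo and 1080 ± 421 CPM in IVF (-1.88 ± 0.36, adjusted p = 0.00819), and HYOU1 70 ± 16.3 and 18.5 ± 4.07 CPM (-1.91 ± 0.32, adjusted p = 0.00385).

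The counts of these 29 genes moved with single libraries, though PDIA6 and CRELD2 in blastocysts and HSPA5 and HYOU1 in hatched blastocysts were called in all 5 refits. In the fit of all 13 libraries none of the 29 was called between the origins at either stage. There PDIA6 and CRELD2 had adjusted p = 0.0561 and 0.0619, and HSPA5 and HYOU1 0.199 and 0.0614. Without in vivo blastocyst library 1, 4 of 29 were lower in IVF blastocysts, and without each of the others 9 to 11. After hatching, 6 were lower without in vivo hatched library 2, 8 without the unnumbered library, and 4 to 6 without 1 of the IVF hatched libraries. Between unhatched and hatched in vivo blastocysts, 1 of 29 was called in each direction (6.96% of all genes higher and 7.39% lower). After hatching CANX was higher (1.05 ± 0.3, adjusted p = 0.0381) and SDF2L1 lower (-1.92 ± 0.38, adjusted p = 0.00733). In the 4 refits without a single library CANX ran from 0.47 to 1.46 and SDF2L1 from -2.4 to -1.3, and neither kept its call in all 4.

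**Figure D4:**
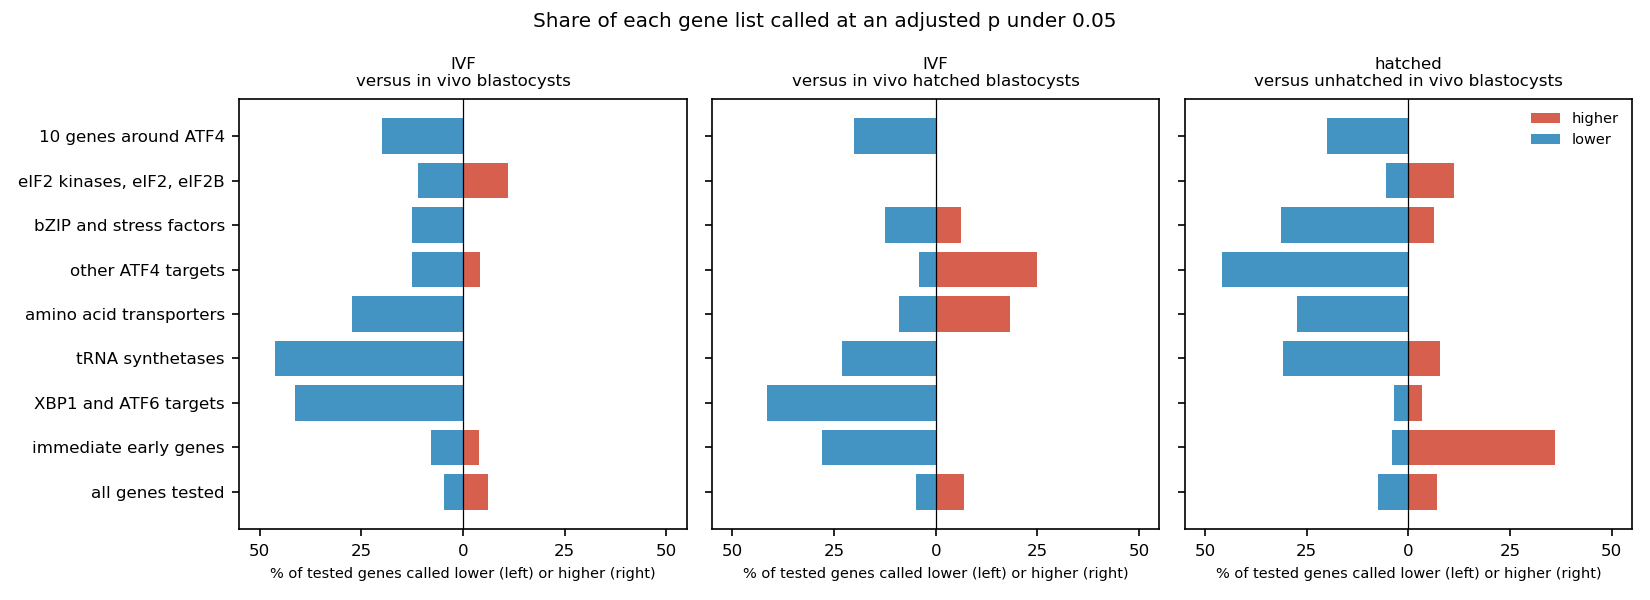
Share of the tested genes of each list called lower (left of 0) or higher (right of 0) at an adjusted p under 0.05, in percent, in 3 comparisons, with all genes tested in the bottom row. The list of XBP1 and ATF6 targets has 12 of 29 genes lower in IVF blastocysts and 12 of 29 in IVF hatched blastocysts. The list of other ATF4 targets holds 11 of 24 lower after hatching in vivo.

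Transcription factors that pair with ATF4 or respond to stress (16 genes) held 5 that were lower and 1 that was higher after hatching in vivo, where 7.39% and 6.96% of all genes were. JDP2, a dimerisation partner of the ATF and JUN proteins, had 23.3 ± 11.6 CPM before and 0.804 ± 0.156 CPM after (-4.89 ± 0.73, adjusted p = 0.00227), and CEBPG, a partner of ATF4, was at -1.31 ± 0.31 (adjusted p = 0.0174). The count of 5 was 1 without in vivo blastocyst library 1 and 3 without either hatched library. Between the origins, 2 of 16 were lower in IVF blastocysts (4.74% of all genes), JDP2 (-2.82 ± 0.57, adjusted p = 0.0127) and NFE2L1 (-1.46 ± 0.41, adjusted p = 0.0419), and none without in vivo blastocyst library 1. After hatching ATF6B (-1.54 ± 0.36, adjusted p = 0.0204) and ATF6 (-1.18 ± 0.35, adjusted p = 0.0497), sensors related to each other in the endoplasmic reticulum membrane, were lower in IVF. Neither was called without in vivo hatched library 2 or without IVF hatched library 2 or 3. ATF6 was also not called without IVF hatched library 1. NUPR1 was higher (2.5 ± 0.72, adjusted p = 0.0439) and lost its call without any 1 of the IVF hatched libraries.

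Immediate early genes were followed because handling of embryos can switch them on. Of 25 tested, 9 were higher and 1 lower after hatching in vivo, against 6.96% and 7.39% of all genes. FOS went from 33.8 ± 15.4 to 277 ± 26.1 CPM (3 ± 0.35, adjusted p = 0.000813) and JUN from 31.7 ± 11 to 390 ± 226 CPM (3.59 ± 0.42, adjusted p = 0.000833). The count of 9 was 4 without in vivo blastocyst library 1 and 5 without the unnumbered library. In hatched embryos 7 of 25 were lower in IVF (4.88% of all genes), FOS among them (-3.17 ± 0.3, adjusted p = 0.00021), and 4 without IVF hatched library 1 or 3. For FOS (-2.19 ± 0.42, adjusted p = 0.0173) and JUN (-3.34 ± 0.5, adjusted p = 0.00731) the hatching change differed between the origins, in all 10 refits and not in the fit of all 13 libraries (adjusted p = 0.662 and 0.196). Hypoblast markers summed to 365 to 1040 CPM in in vivo hatched embryos and to 142 to 302 CPM in the other groups. Epiblast markers summed to 637 to 916 CPM in in vivo hatched and 1330 to 1500 CPM in IVF hatched embryos, while 7 of the 10 were below 0 in IVF with a list median of -0.35, and POU5F1, TDGF1 and DPPA5 were called higher. The part of these lists in the results on hatched embryos was not tested.

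Over all 13 libraries the 10 genes did not share 1 pattern. As a measure of likeness, log2 CPM was centred on each gene's mean and the root mean square difference was taken, in log2 units. The nearest pair was ATF4 and PPP1R15A (0.51), followed by DDIT3 with ATF4 and with SESN2 (0.6 each) and TRIB3 with PPP1R15A (0.63), while CHAC1 and ATF3 were farthest apart (4.12). XBP1 was nearest to ATF3 (1.05). Among the 8897 genes with a mean of at least 5 CPM, those nearest to ATF4 were RPL27A (0.28), DDX49 (0.32), GATC (0.34), CAMLG (0.34) and CDC37 (0.35), where ATF4 varied by 0.72 around its own mean. Nearest to DDIT3 were GMNN (0.41), CYB5B (0.42), HBP1 (0.44), DESI2 (0.45) and SAP18 (0.45), against its own variation of 0.64. Nearest to XBP1, which varied by 2.67, were ABHD12 (0.34), ATP5O (0.41), ATPIF1 (0.41), ATP6AP1 (0.42) and CLDN4 (0.45). The libraries share depth and scaling, so these values describe the 13 libraries and test nothing.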

How the data were processed

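The authors deposited 1 gene table on Sscrofa11.1 with whole-number read counts, FPKM and TPM per library. Per the submitters' processing notes, the tools were RSEM, HISAT2, Bowtie2, fastp 0.18.0 and StringTie 1.3.1, but their roles are not stated. The making of the counts, the treatment of reads shared by similar genes and the use of strand are not given in the sources used here. Per the labels' protocols, messages were captured with oligo(dT), and read pairs came from an Illumina HiSeq. The deposited FPKM values served to compare levels between genes, and 14 of the 39 columns that hold library values were left aside (TPM, and 1 of FPKM whose match to the unnumbered count column is uncertain). The 24 genes without a symbol held 0.0171% to 0.112% of the counts. They were kept for scaling and tests, and no gene list holds them.

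Counts were scaled with TMM factors over 13 libraries for the levels. Tests used edgeR 4.0.16 (quasi-likelihood, Benjamini-Hochberg, TMM, filterByExpr for low counts) in R 4.3.3, over the 10 blastocyst and hatched libraries (15528 genes) or the 9 IVF libraries (16312 genes). Alternatives were DESeq2 1.42.0, other size factors (RLE), no filter, 1 fit of all libraries, leaving out each library, and raw library totals, the last chosen after seeing the data. Another took the replicate number as a block, without the unnumbered library. On simulated counts for IVF against in vivo blastocysts (14767 genes), 75 of 99 genes changed 16-fold were called and 33 of 98 changed 4-fold. For IVF blastocysts against 4-cell embryos (15756 genes), 32 of 100 changed 16-fold were called and 4 of 99 changed 4-fold. In each simulation only these genes were changed, and every other gene had the same mean in all groups. In the data 10.8% and 56.3% of all genes were called in these comparisons. The adjusted p threshold is stricter where few genes change, so the simulated shares do not give the power of the real tests. Separate animals or rounds are not given, so p-values reflect only how far these libraries vary, and that variation may be technical. All replicate pairs differed by more than sampling noise.

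The members and gene lists were chosen with earlier results of these data known. All members are named in every comparison. From each list the text takes up to 4 called genes with the smallest p in each comparison. For ATF4, DDIT3 and XBP1 it takes the 5 genes nearest in pattern. Outside this rule, it names the XBP1 and ATF6 targets lower in IVF at both stages, and some marker genes. Symbols matched by name, and DELE1, TNFRSF10B, HMOX1, TRAF2 and NR4A1 were not analysed here.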

Additional observations from a re-analysis of the deposited data

How the results depend on the processing

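The number of the 10 genes called between IVF and in vivo blastocysts was 2, or 4 without a filter on low counts, 0 in 1 fit of all 13 libraries, and 0 to 1 with a single library left out. Between the hatched groups it was 2, or 4 without the filter, 0 in the fit of all 13 libraries, and 0 to 3 with a library left out. For hatching in vivo it was 2, or 4 without the filter, 0 in the fit of all 13, and 1 to 5 with a library left out. For hatching in IVF it was 0, or 1 without the filter and 0 with any library left out, and for the difference of the hatching changes 0, or 2 without the filter and 0 to 1. From the 4-cell stage it was 4 in blastocysts (4 to 7 with a library left out) and 3 in hatched blastocysts (3 to 6). In the fit of all 13 libraries only 7, 92 and 101 genes of the whole table were called in the first 3 comparisons, 0 for hatching in IVF and 1 for the difference of the hatching changes, and no gene list had more than 1 called gene there in either direction.

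Directions that reversed with a call under the alternative were ATF3 at 1.05 (IVF against in vivo hatched) and -1.19 (hatching in vivo) without the unnumbered library, and TRIB3 at 1.79 and 1.21 and PPP1R15A at 1 without 4-cell library 1. Of the 70 values of members, 32 changed sign in at least 1 refit without a single library, the 5 just named with a call. With single libraries left out these ranged from -2.08 to 1.05 and from -1.19 to 1.93 for ATF3, from -1.64 to 1.79 (blastocysts) and -2.21 to 1.21 (hatched) for TRIB3, and from -0.44 to 1 for PPP1R15A. The cause was not tested. The fit with the replicate number as a block left out the unnumbered library, so 1 in vivo hatched library remained. In comparisons with in vivo hatched embryos, the block therefore cannot be told apart from the loss of that library. Deviations of same-numbered libraries from their group correlated at -0.13 to 0 over 7 pairs and at -0.03 to 0.03 over 9. With so few libraries per group the deviations mirror each other, so these values cannot tell whether the numbers pair the libraries. Over the 10 genes and 7 comparisons, RLE factors changed none of 70 calls and DESeq2 changed 1. DESeq2 called 3 members in place of 2 between IVF and in vivo blastocysts. In FPKM, with 1 in vivo hatched library, the group mean was highest there for 1 member in place of 3, and in IVF blastocysts for 1 (XBP1) in place of 0. The member nearest to the limit of depth was ERN1, at 0.113 CPM in 4-cell library 3.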
